A study of Mus musculus with 8 samples.

Results

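Aminoacyl-tRNA synthetases attach each amino acid to its tRNA, and amino acid transporters carry the amino acids across the cell membrane. The genes described here are 20 genes of cytosolic synthetases and 16 genes of amino acid transporters, 36 in all, chosen by name and matched to array probes through their accessions. They had 44 of the 55681 experimental probes, and 35 of the 36 were among the 14313 named genes that could be tested. The exception was Slc7a6, a light chain of a transporter for basic and neutral amino acids, whose only probe was well above background in 1 tumor channel and in no control channel.

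RNA of 8 hepatocellular carcinomas (HCC) was set against liver RNA on a single Agilent slide that holds 8 arrays of 2 colours. Male miR-122 KO mice gave the tumors, labelled with Cy5; the control livers came from age-matched male mice with a floxed miR-122 gene, which 1 label field calls WT, and were labelled with Cy3. The mice of both groups were a mix of C57BL/6J and 129S/Svj. No array had the dyes swapped, so dye and tumor cannot be told apart, and loss of the microRNA and tumor growth cannot be told apart either, since no tumor-free knockout liver was compared. The labels number the tumors and name neither the animals nor a Cre driver, and they do not say whether the control RNA was pooled. The control channels were not all alike: the summed log2 level of 12 skeletal muscle markers was 16.64 on array 8 and at most 10.2 on the others. The p-values measure the spread between these 8 arrays, which may leave out part of that between control animals. miR-122 itself was not analysed here.

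As background, a synthetase recognizes its amino acid and tRNA and supplies ribosomes with charged tRNA; several of the cytosolic ones sit together in a multisynthetase complex. Many transporters of the Slc7 family are light chains that reach the membrane only when joined to a heavy chain, Slc3a2 or Slc3a1. When amino acids run short, uncharged tRNA activates the kinase Gcn2, the transcription factor Atf4 accumulates, and Atf4 switches on many synthetase and transporter genes. Hepatocytes take up glutamine, alanine and other amino acids from portal blood through members of the Slc38 family.

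Between 40% and 53.3% of probes were well above background in the tumor channel and between 46.5% and 55.5% in the control channel, and no spot was saturated. Values are log2 ratios of tumor over control, with their SD over the arrays, or log2 levels of 1 channel, which were compared for the same probe only. Levels summed over 10 hepatocyte markers were 19.35 to 19.75 in the tumors and 20.02 to 20.38 in the control livers, and all 7 tumor markers looked at were higher in tumor. The sum of 5 stellate cell and fibroblast markers was 12.47 to 15.85 in the tumors and 10.92 to 12.18 in the control livers, with Col1a1 (3.65 ± 1.2), Col1a2 (3.00 ± 1.21) and Pdgfrb (1.45 ± 0.58) called higher, and that of 4 bile duct markers was 9.17 to 11.57 in the tumors and 9.23 to 9.79 in the control livers, with Sox9 (1.53 ± 1.49) called higher. The other stellate and fibroblast markers, Lrat (-0.76 ± 1) and Des (-0.28 ± 0.81), had means below 0 and did not pass. The part of these cell types in the values of the listed genes was not tested. Array 8 stood apart: the upper quartile of its tumor signal was 213, against 378 to 606 on the others, and its ratios correlated with those of the other arrays at a mean r of 0.528, against 0.629 to 0.740 (r across genes, which are no replicates). The summed level of 12 skeletal muscle markers on that array was 12.68 in the tumor channel and 16.64 in the control channel, against at most 10.29 and 10.20 on arrays 1 to 7; of these markers 10 were above background in some tumor channel and all 12 in some control channel.

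The largest changes among the listed genes were in transporters. A gene was called changed if it differed at least 2-fold with an adjusted p under 0.05, by limma and Benjamini-Hochberg adjustment over all genes. By that rule 3 of the 15 tested transporters were higher in tumor (Slc3a2, Slc1a5 and Slc7a7) and 1 was lower (Slc38a3), against 9.54% of all genes higher and 5.94% lower. None of the 20 synthetases was called in either direction. At an unadjusted p under 0.05 (limma) with no minimum size, 8 were higher and 4 lower. The share of all genes by an unadjusted p is not given, here or for the lists below, so these counts have no background beside them. By adjusted p alone, 7 synthetases rose, 3 fell and 10 did not pass, and 6 transporters rose, 2 fell and 7 did not pass; of all genes, 28.7% rose and 25.1% fell by that rule. The median log2 ratio was 0.04 over the synthetases and 0.10 over the transporters, beside 0.03 over all genes, so neither list as a whole stood away from the rest in its centre. Ratios of the synthetases ran from -0.82 to 0.95 and those of the transporters from -1.69 to 1.44. In bulk RNA, fewer cells of a type and less RNA per cell cannot be told apart.

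**Figure D1:**
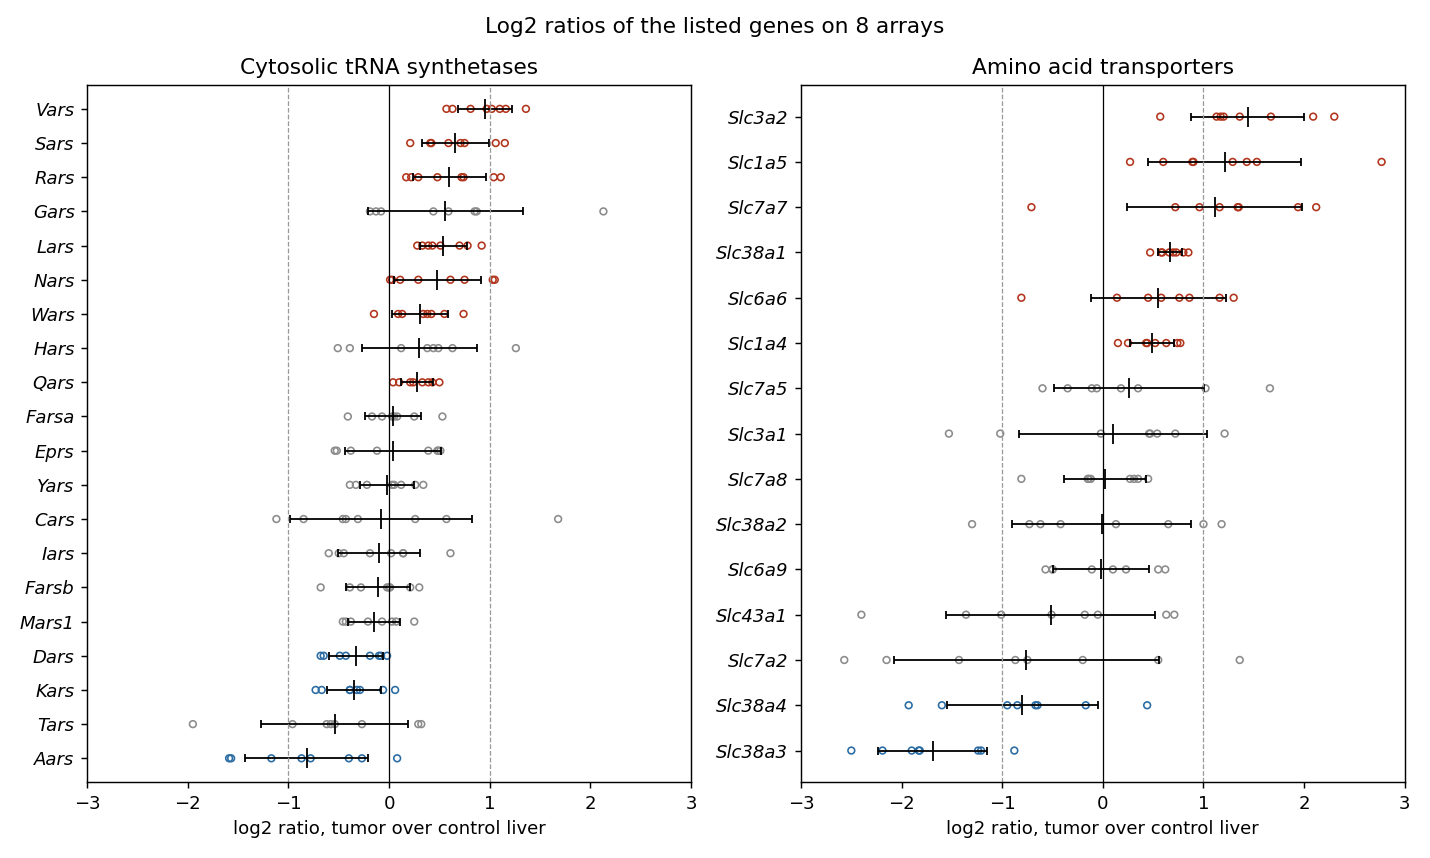
Log2 ratio of tumor over control liver for each tested synthetase (left) and transporter (right), with 1 circle per array, the mean as a vertical tick and the SD over 8 arrays as a bar; red marks genes higher and blue genes lower at an adjusted p under 0.05, grey the others, and dashed lines mark 2-fold. Means of the synthetases stay between -0.82 and 0.95, while Slc3a2, Slc1a5 and Slc7a7 lie past 2-fold above and Slc38a3 past 2-fold below.

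Slc3a2 encodes the heavy chain 4F2hc (CD98), which carries the light chains Slc7a5, Slc7a6, Slc7a7, Slc7a8 and Slc7a11 to the cell surface. Its level had a lowest, median and highest value of 12.85, 13.64 and 15.03 in the tumors, against 12.08, 12.47 and 12.73 in the control livers. The lowest tumor lay above the highest control, and such a gap with tumor higher was seen in 8.32% of all genes. Arrays 1 to 8 gave log2 ratios of 1.36, 2.30, 1.13, 0.57, 1.17, 1.20, 1.67 and 2.09. The mean was 1.44 ± 0.56 (SD, n = 8), which is 2.70-fold higher in tumor, with limma's adjusted p = 0.000165. The other heavy chain, Slc3a1 (rBAT), which pairs with Slc7a9 to carry cystine and basic amino acids, had a mean ratio of 0.10 ± 0.93, with values on both sides of 0. Within arrays Slc3a2 exceeded Slc3a1 by 1.33 ± 0.57 (95% interval 0.85 to 1.81), in the same direction on 8 of 8 arrays, by an exact two-sided sign-flip permutation test with p = 0.0469 adjusted over the 6 gene pairs tested. This difference was 1.35 without arrays 7 and 8, where the adjusted p was 0.141 by the same test. With fewer arrays the smallest p that the sign-flip test can give is larger, so the lost pass says little.

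The light chains that Slc3a2 carries had unlike ratios. Slc7a7 (y+LAT1) exports basic amino acids in exchange for neutral ones, and its level was 9.74, 12.17 and 13.06 (lowest, median and highest) in the tumors, against 10.38, 10.93 and 11.36 in the control livers. Tumor 8 lay below every control, while the other 7 tumors lay above every control. Arrays 1 to 8 gave 2.12, 1.35, 1.94, 0.96, 1.16, 1.34, 0.72 and -0.71, with a mean of 1.11 ± 0.87, or 2.16-fold higher (adjusted p = 0.0065, limma). The mean was 1.37 without array 8, but 0.97 without array 1 and 0.99 without array 3, just under 2-fold, and in the second row of the slide alone (arrays 5 to 8) it was 0.63 (adjusted p = 0.258), against 1.59 in the first row. Macrophages also express Slc7a7; the summed level of 4 macrophage markers of 5 listed, all above background, was 13.02 to 14.66 in the tumors and 13.89 to 15.40 in the control livers, lowest in both channels on array 8. The markers ran both ways: Clec4f (-3.33 ± 1.11) and Marco (-2.83 ± 2.22) were lower in tumor, while Adgre1 (0.33 ± 0.6, above 0 on 7 arrays and -1.02 on array 8) and Csf1r (0.07 ± 0.56, above 0 on 6 arrays and -0.81 on array 8) did not pass and had their lowest ratios on array 8, as Slc7a7 did. Their part in the result was not tested.

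Slc7a5 (LAT1) and Slc7a8 (LAT2) exchange large neutral amino acids such as leucine. Slc7a5 had a mean of 0.26 ± 0.75 (adjusted p = 0.365), from -0.60 on array 3 to 1.66 on array 8, and its dimmer second probe gave -0.13. Slc7a8 had a mean of 0.02 ± 0.41; its probe was spotted 10 times on each array, and the SD of those spots within an array had a median of 0.14, which leaves out noise of labelling and hybridization. Slc7a5 exceeded Slc7a8 by 0.24 ± 0.79 (adjusted p = 0.534, exact sign-flip permutation test), with an interval of -0.42 to 0.90 that leaves room for a difference in either direction. Slc7a11, the cystine and glutamate exchanger that also needs Slc3a2 and is no member of the list, was at least 8.32-fold higher in tumor, since no control channel measured it above background (adjusted p = 0.000175, limma).

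Slc1a5 (ASCT2) and Slc1a4 (ASCT1) exchange small neutral amino acids, Slc1a5 also glutamine. The level of Slc1a5 was 8.31, 8.87 and 10.87 (lowest, median and highest) in the tumors and 7.56, 7.69 and 8.62 in the control livers. The groups overlapped, and tumor 8 stood highest. Arrays 1 to 8 gave log2 ratios of 0.90, 1.53, 0.60, 1.29, 1.43, 0.27, 0.89 and 2.77, all above 0. Slc1a5 averaged 1.21 ± 0.76, or 2.32-fold higher (adjusted p = 0.00207, limma). Without array 8 its mean was 0.99 (adjusted p = 0.000828), which is just under 2-fold, its second probe gave 0.75, and the mean of both probes was 0.98; the second row of the slide alone gave 1.34 (adjusted p = 0.0699). Slc1a4 rose by 0.49 ± 0.22 (adjusted p = 0.00153), with 8 of 8 arrays above 0. The difference of Slc1a5 minus Slc1a4, 0.72 ± 0.75 (interval 0.09 to 1.35), did not pass after adjustment over the pairs (adjusted p = 0.0781, exact sign-flip permutation test).

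The sodium-coupled transporters of the Slc38 family ran both ways. Slc38a3 (SNAT3) moves glutamine in and out of hepatocytes, and its level was 13.01, 13.32 and 14.18 in the tumors, against 14.60, 15.16 and 15.56 in the control livers. Every tumor lay below every control, as in 8.47% of all genes. Arrays 1 to 8 gave -1.90, -1.21, -2.50, -1.82, -1.83, -2.19, -1.24 and -0.88. The mean was -1.69 ± 0.54, or 3.24-fold lower in tumor (adjusted p = 5.28e-05, limma), and it stayed between -1.81 and -1.58 with any 1 array left out. Slc38a4 (SNAT4), which hepatocytes also express, had levels of 12.46, 13.40 and 14.17 in the tumors and 13.65, 14.18 and 14.39 in the control livers, with overlap.

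Arrays 1 to 8 gave Slc38a4 ratios of -1.93, -0.67, -1.60, -0.65, -0.95, -0.85, 0.44 and -0.17, with a mean of -0.80 ± 0.75 (adjusted p = 0.016, limma). Its fall depended on the arrays used: the first row of the slide gave -1.21 and the second row -0.38 (adjusted p = 0.338), and without arrays 7 and 8 it was -1.11. The difference of Slc38a4 minus Slc38a3 was 0.90 ± 0.52 (interval 0.46 to 1.33, 7 of 8 arrays, adjusted p = 0.0469, exact sign-flip permutation test), so Slc38a3 fell further. Without arrays 7 and 8 the difference was 0.80 (adjusted p = 0.141, exact sign-flip permutation test). Here too a lost pass with fewer arrays says little.

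Slc38a1 (SNAT1), a glutamine importer, rose by 0.67 ± 0.12 (adjusted p = 6.91e-05), with ratios on arrays 1 to 8 of 0.70, 0.85, 0.66, 0.80, 0.73, 0.59, 0.58 and 0.47. Its levels of 8.09, 8.82 and 9.04 in the tumors and 7.62, 8.06 and 8.45 in the control livers overlapped although every array was above 0; tumor 8 and its control were each the lowest of their channel. The 2 other probes of Slc38a1 gave 0.19 and 0.11, the second not above background on any array. Slc38a2 (SNAT2), which rises in many cells when amino acids are scarce, averaged -0.01 ± 0.89, from -1.30 on array 4 to 1.18 on array 2. The difference of Slc38a2 minus Slc38a1, -0.69 ± 0.91 (interval -1.45 to 0.07), did not pass (adjusted p = 0.129, exact sign-flip permutation test).

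**Figure D2:**
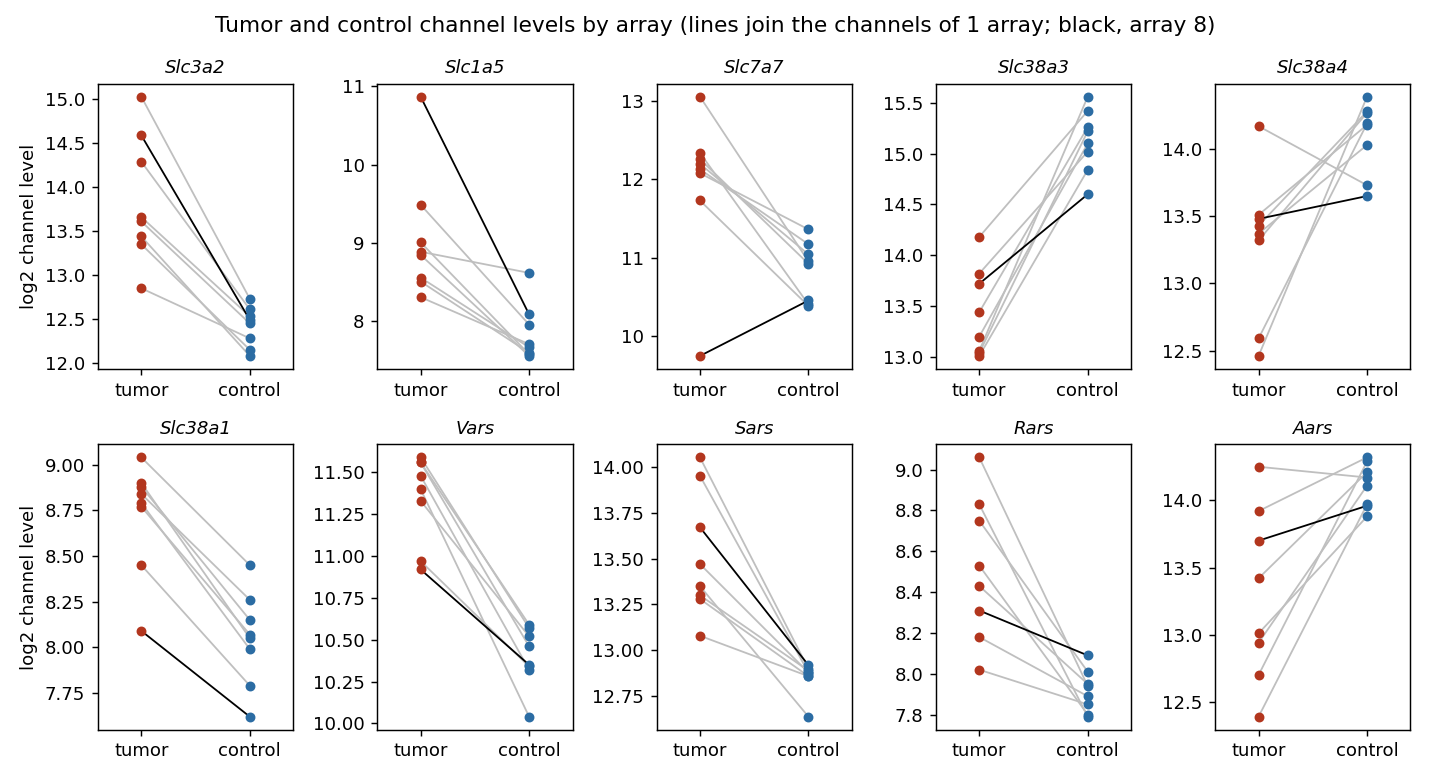
Log2 channel level of 10 listed genes, tumor (red) left of control liver (blue), with 1 line joining the channels of each of 8 arrays and array 8 in black; the vertical scales differ between panels. Tumor and control levels are apart for Slc3a2, Slc38a3, Vars and Sars and overlap for the other genes shown.

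The remaining transporters were Slc6a6, Slc6a9, Slc7a2 and Slc43a1. Slc6a6, which imports taurine, rose by 0.55 ± 0.67 (adjusted p = 0.0474), but it did not pass without any 1 of arrays 1 to 7, at 0.45 to 0.61 (adjusted p 0.0503 to 0.113). Slc6a9, a glycine transporter, averaged -0.02 ± 0.48, and its second probe gave -0.19. Slc7a2, the arginine and lysine transporter CAT2 of liver, had a mean of -0.76 ± 1.32 (adjusted p = 0.137), with 1.36 on array 8 and 0.55 on array 7, against values of -2.57 to -0.20 on the other 6. Without array 8 Slc7a2 stood at -1.06 (adjusted p = 0.0277), which met both criteria, and without arrays 7 and 8 at -1.33 (adjusted p = 0.00676). Slc43a1 (LAT3), a carrier of large neutral amino acids, had a mean of -0.52 ± 1.04 (adjusted p = 0.194), and it was -0.92 (adjusted p = 0.0296) without arrays 7 and 8 but -0.25 without array 6, where it was -2.40.

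Among the synthetases the gains and losses were small. Vars, which charges valine tRNA, had levels of 10.92, 11.44 and 11.59 (lowest, median and highest) in the tumors and 10.04, 10.40 and 10.59 in the control livers, with no overlap. Its ratios on arrays 1 to 8 were 1.36, 1.16, 0.81, 0.97, 1.1, 1.02, 0.63 and 0.57, with a mean of 0.95 ± 0.27 (adjusted p = 6.59e-05, limma). The gene lay just below the 2-fold limit, and without array 8 it was 1.01 and met it. Sars, the serine enzyme, was 13.08, 13.41 and 14.05 in the tumors and 12.64, 12.88 and 12.92 in the control livers, again with no overlap. On arrays 1 to 8 Sars gave 0.42, 1.06, 0.21, 0.41, 0.71, 0.59, 1.15 and 0.75, with a mean of 0.66 ± 0.33 (adjusted p = 0.00114).

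Rars, the arginine enzyme, had levels of 8.02, 8.48 and 9.06 in the tumors and 7.79, 7.92 and 8.09 in the control livers, which overlapped. Its ratios of 1.11, 1.04, 0.17, 0.48, 0.72, 0.29, 0.74 and 0.22 on arrays 1 to 8 averaged 0.60 ± 0.36 (adjusted p = 0.00313). Lars, the leucine enzyme, rose by 0.54 ± 0.23 (adjusted p = 0.00102), at 11.76, 11.97 and 12.35 in the tumors and 11.40, 11.46 and 11.59 in the control livers. Lars, Sars and Vars were the 3 synthetases whose tumor levels all lay above the control levels, 3 of 20 beside the 8.32% of all genes given above. Smaller rises were seen for Nars, the asparagine enzyme (0.48 ± 0.43, adjusted p = 0.0173), and Qars, the glutamine enzyme (0.28 ± 0.16, adjusted p = 0.0135). Wars, the tryptophan enzyme, passed at 0.31 ± 0.28 (adjusted p = 0.0298), but its second probe gave -0.13 and it no longer passed when either array 1, 2, 3, 7 or 8 was left out (0.25 to 0.31, adjusted p 0.0549 to 0.0719).

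Aars, which charges alanine tRNA, ran the other way. Its levels were 12.39, 13.21 and 14.25 in the tumors and 13.88, 14.14 and 14.32 in the control livers, so the tumors covered a far wider range that overlapped the controls. Arrays 1 to 8 gave -0.78, 0.08, -1.57, -1.17, -0.87, -1.59, -0.40 and -0.27, with a mean of -0.82 ± 0.61 (adjusted p = 0.00553, limma). A dimmer second probe, above background in no tumor and in 5 control channels, gave -0.25. Kars, the lysine enzyme, fell by 0.35 ± 0.27 on the log2 scale (adjusted p = 0.0161), and Dars, the aspartate enzyme, by 0.33 ± 0.27 (adjusted p = 0.0201), with 8 of 8 arrays below 0; Dars just missed the threshold without array 3, 4 or 6 (adjusted p 0.0518 to 0.0524).

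The 10 synthetases that did not pass fell mostly into genes with a small mean and a small spread, and genes that differed widely between arrays. Farsa and Farsb, the subunits of the phenylalanine enzyme, averaged 0.04 ± 0.28 and -0.11 ± 0.32, and Farsb differed from Farsa by -0.14 ± 0.50 within arrays (interval -0.56 to 0.27, adjusted p = 0.562, exact sign-flip permutation test). A dimmer second probe of Farsa gave -0.25 ± 0.22. With the mean of both probes Farsa stood at -0.11, and the difference of Farsb minus Farsa was 0.00. Yars (tyrosine, -0.02 ± 0.27) and Mars1 (methionine, -0.15 ± 0.26) likewise stayed near 0. Iars (isoleucine, -0.10 ± 0.41) lay between these kinds, with ratios from -0.60 on array 3 to 0.61 on array 2. Wider spreads were seen for Cars (cysteine, -0.08 ± 0.90, from -1.12 on array 7 to 1.68 on array 1), Gars (glycine, 0.56 ± 0.77), Tars (threonine, -0.54 ± 0.73), Hars (histidine, 0.30 ± 0.57) and Eprs (glutamate and proline, 0.04 ± 0.48). Tars was -1.95 on array 8; it was -0.34 without that array and -0.23 (adjusted p = 0.245) without arrays 7 and 8, and it passed as lower, at -0.66, without array 1 (adjusted p = 0.0415) or array 6 (adjusted p = 0.0396).

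By their known place in the cell, 8 of the synthetases belong to the multisynthetase complex, and by adjusted p alone 3 of these rose (Lars, Qars and Rars), 2 fell (Dars and Kars) and 3 did not pass, with a median of -0.03. Of the 12 others, 4 rose, 1 fell and 7 did not pass, with a median of 0.17; by that rule 28.7% of all genes rose and 25.1% fell. Of the scaffold proteins of the complex, Aimp1 rose by 0.59 ± 0.09 (adjusted p = 9.59e-05) and Aimp2 by 0.29 ± 0.30 (adjusted p = 0.0461), while Eef1e1 stood at -0.16 (adjusted p = 0.409).

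The spread between tumors was wider than between controls. The SD over arrays was larger in the tumor channel for 19 of 20 synthetases (95%) and 13 of 15 transporters (86.7%), beside 83.0% of all genes. The median SD was 0.34 in the tumor channel and 0.16 in the control channel for synthetases, 0.62 and 0.34 for transporters, and 0.34 and 0.19 for all genes. On array 8, 14 of the 35 listed genes lay outside the range of the other arrays in the tumor channel (40.0%, beside 46.6% of all genes), and 14 did so in the control channel (40.0%, beside 33.8%). By array, the median ratio of the synthetases ran from -0.17 on array 4 to 0.41 on array 2, and that of the transporters from -0.11 on array 5 to 0.85 on array 2, while the median of all genes was 0.02 to 0.06 on arrays 1 to 7 and -0.10 on array 8.

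Part of the variation between arrays ran with Asns, asparagine synthetase, a classical Atf4 target. Asns was chosen as the yardstick after its values were seen. Its log2 level on arrays 1 to 8 was 13.38, 13.96, 7.48, 9.49, 11.94, 10.91, 14.85 and 14.43 in the tumors, against 12.76, 12.48, 13.55, 11.91, 11.89, 13.48, 12.62 and 8.22 in the control livers. Tumor 3 and the control of array 8 were the low points of their channels, and the ratio averaged -0.06 ± 3.69 (adjusted p = 0.967, limma). Over the 8 arrays, the ratios of 5 of the 35 tested genes correlated with that of Asns after adjustment over 35 relations by an exact permutation test, all positively. These were Slc38a3 (r = 0.93, rho = 0.88, adjusted p = 0.0113), Gars (r = 0.92, rho = 0.88, adjusted p = 0.0113), Slc7a5 (r = 0.91, rho = 0.95, adjusted p = 0.0113), Eprs (r = 0.85, rho = 0.93, adjusted p = 0.0113) and Hars (r = 0.89, rho = 0.93, adjusted p = 0.0342), with permutation p-values of r. Aars came next (r = 0.84, rho = 0.90, adjusted p = 0.0521, exact permutation), and 11 of 35 genes passed before adjustment, of which only Slc7a7 was negative (r = -0.73, rho = -0.52, adjusted p = 0.142, exact permutation; r = -0.01 without arrays 3 and 8). Only the listed genes were set against Asns. The share of all genes that would pass is not known, so these counts are not shown to be particular to them.

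Without arrays 3 and 8, the 2 farthest from the median of Asns, r was 0.97 for Gars, 0.94 for Eprs, 0.81 for Slc38a3, 0.74 for Slc7a5 and 0.71 for Hars over the other 6. A ratio shares its array and its control channel with that of Asns, and in the tumor channel alone no gene passed after adjustment (7 of 35 before it, exact permutation test). The count of 5 fell to 0 without array 6 or array 8 (7 and 10 genes before adjustment), to 1 without array 3 and to 3 without array 5 or array 7, while the r of the 5 genes stayed between 0.80 and 0.99 with any 1 array left out. Each row of the slide holds 4 arrays, too few for a correlation within it. Vars (r = -0.27) and Slc38a1 (r = -0.36), which were higher on every array, did not pass even before adjustment, nor did Cars (r = -0.16).

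**Figure D3:**
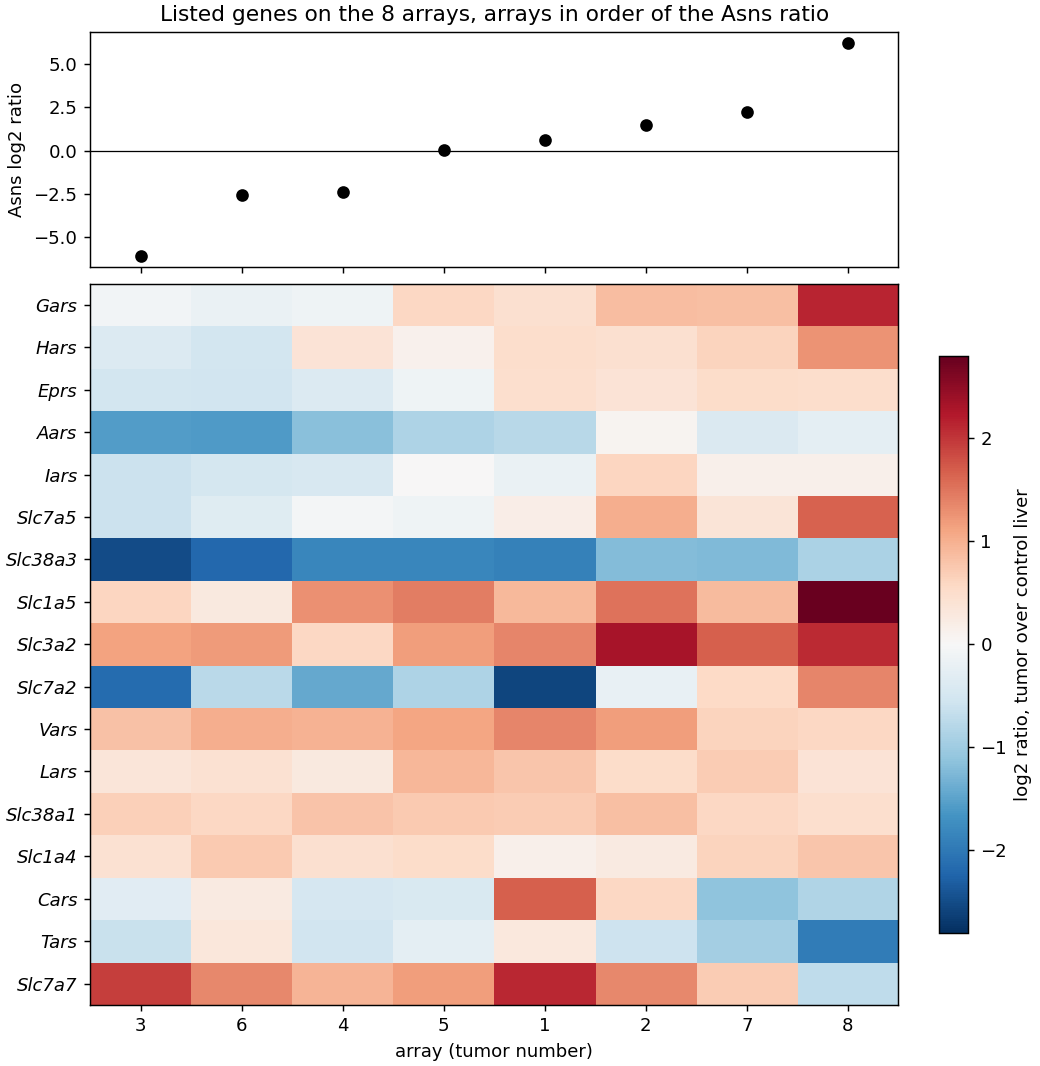
The 8 arrays in order of the log2 ratio of Asns (upper panel), with the log2 ratios of tumor over control liver of 17 listed genes as colours (lower panel, red higher and blue lower in tumor). Gars, Hars, Eprs and Slc7a5 pass from blue or pale on the left to red on the right and Slc38a3 from dark to pale blue, while Vars, Lars and Slc38a1 stay red throughout.

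Promoter sequences from RefSeq (GRCm38.p6, 250 bases before to 50 after a gene's start) were searched for TGATGNAA, the core of the element that Atf4 binds with C/EBP proteins, on both strands (reverse, TTNCATCA). The table holds 23 of the 36 genes. Of these, 7 had a match (30.4%), beside 1219 of 27025 genes in the table (4.51%): Aars, Gars, Iars, Tars and Yars of 13 synthetases and Slc1a4 and Slc7a7 of 10 transporters. Among the 7, Slc1a4 and Slc7a7 rose by adjusted p alone, Aars fell and 4 did not pass, beside 28.7% of all genes higher and 25.1% lower. So few genes cannot show whether a match goes with a direction. Of the genes that correlated with Asns, Gars had a match and Eprs none in this window, while Hars, Slc7a5 and Slc38a3 were not searched. The 150 bases before the start are shown for 3 synthetases, and 30 bases around the match for the genes whose match lies at or near the start, with the match in capitals and each sequence 5′ to 3′ on the strand of the gene. Aars lies on the plus strand at chr8:111033692-111033841, Gars on the plus strand at chr6:55037851-55038000 and Tars on the minus strand at chr15:11399659-11399808. The windows of Iars (chr13:49682126-49682155, plus), Yars (chr4:129189895-129189924, plus), Slc1a4 (chr11:20332699-20332728, minus) and Slc7a7 (chr14:54417927-54417956, minus) follow, and that of Asns (chr6:7693210-7693359, minus) is given for comparison.
Aars: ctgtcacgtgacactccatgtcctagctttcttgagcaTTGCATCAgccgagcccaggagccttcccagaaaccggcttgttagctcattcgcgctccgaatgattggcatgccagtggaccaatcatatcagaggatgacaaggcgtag
Gars: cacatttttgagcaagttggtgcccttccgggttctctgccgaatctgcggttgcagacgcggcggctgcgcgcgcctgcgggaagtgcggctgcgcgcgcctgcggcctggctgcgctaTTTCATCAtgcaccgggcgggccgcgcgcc
Tars: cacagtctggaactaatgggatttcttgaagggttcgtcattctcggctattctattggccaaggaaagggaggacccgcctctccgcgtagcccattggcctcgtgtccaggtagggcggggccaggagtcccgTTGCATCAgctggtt
Iars: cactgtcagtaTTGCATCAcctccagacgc
Yars: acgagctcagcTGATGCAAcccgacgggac
Slc1a4: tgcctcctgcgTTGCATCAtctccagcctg
Slc7a7: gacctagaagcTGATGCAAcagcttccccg
Asns: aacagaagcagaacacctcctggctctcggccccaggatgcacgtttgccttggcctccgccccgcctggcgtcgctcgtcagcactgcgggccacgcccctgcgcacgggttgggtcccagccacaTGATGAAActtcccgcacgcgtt
The matches of Gars, Tars and Asns lay 30, 15 and 23 bases before the start, and that of Aars 112 bases before it; Aars held a second match that began 10 bases after the start, and Slc7a7, which has several starts, held more than the one shown. A match is a description of letters and shows no binding.

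Genes around the listed ones put these values in context. The amino acid response genes held 20 tested genes, of which 11 were called higher and none lower (limma; at an unadjusted p under 0.05, 13 were higher and 1 lower), beside 9.54% and 5.94% of all genes, with a median of 1.1. The largest were the serine synthesis enzymes Psat1 (3.73 ± 0.85), Phgdh (2.43 ± 0.60) and Psph (1.88 ± 0.34) and the stress protein Nupr1 (2.60 ± 0.73). Atf4 itself was called higher, at 1.19 ± 0.39 (adjusted p = 7.96e-05, limma), with 8 of 8 arrays above 0. The median of the cytosolic synthetases, 0.04, lay near that of all genes. All 17 mitochondrial synthetases were tested and none was called at 2-fold; by adjusted p alone 7 fell and none rose (7 lower and 1 higher before adjustment), beside 25.1% and 28.7% of all genes, with a median of -0.22, led by Aars2 (-0.69 ± 0.11, adjusted p = 4.69e-05), Fars2 (-0.68 ± 0.41) and Hars2 (-0.62 ± 0.31). Of 16 translation factors 6 rose and 3 fell by adjusted p alone, beside the same 28.7% and 25.1%, with a median of 0.18.

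Of 29 other amino acid transporters, 21 were tested, 6 were called higher and 3 lower at 2-fold, beside 9.54% and 5.94% of all genes, with a median of 0.11. Slc7a1, the arginine and lysine transporter CAT1, stood at 2.69 ± 0.72 (adjusted p = 1.63e-05, limma), against -0.76 ± 1.32 for its listed relative Slc7a2; the difference was not tested. Slc1a1, a glutamate carrier that was above background in only 1 control channel, stood at 2.10 ± 0.81, and the glutamate carrier Slc1a2 at -2.70 ± 1.77.

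**Figure D4:**
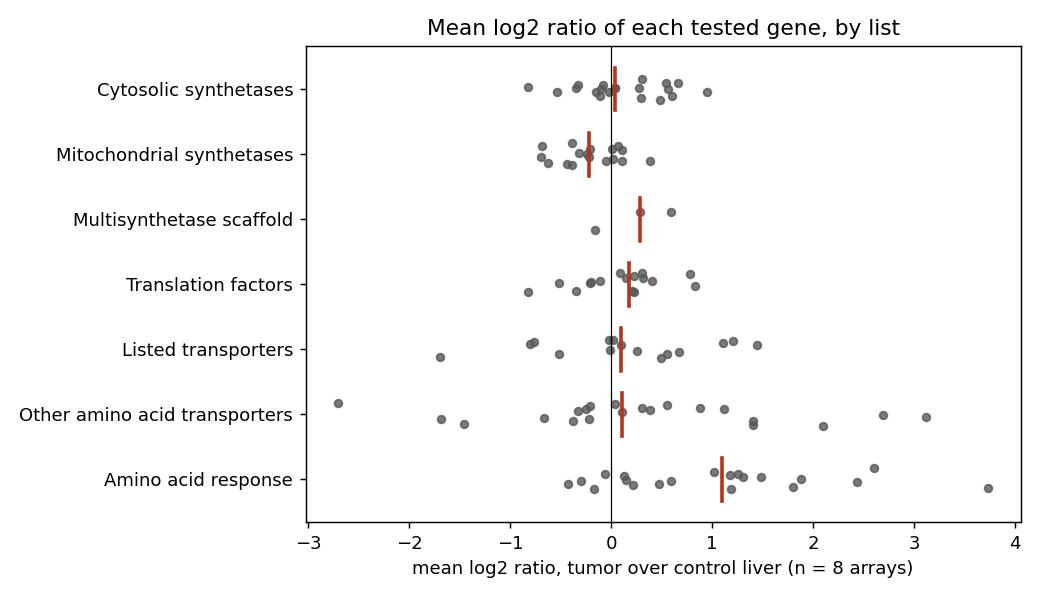
Mean log2 ratio of tumor over control liver for each tested gene (1 point, mean of 8 arrays) in 7 gene lists, with the median of each list as a red line. The cytosolic synthetases centre at 0.04 and the listed transporters at 0.10, while the amino acid response genes centre at 1.1.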

How the data were processed

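The deposited scanner files hold each spot's median signal and background as intensity, beside processed signals and a log ratio that the authors' software wrote as log10 of red over green. These came from Agilent Feature Extraction, version 10.9 in the submitters' processing notes and 10.9.1.1 per the file headers. From the deposited intensities, log2 ratios were computed with normexp (offset 50) and loess within each array in limma 3.58.1 (R 4.3.3; files were read with data.table, whose version was 1.17.8). Control and outlier spots had weight 0 and did not enter the averages over a probe's spots. Probes were named through accessions in the annotation of GRCm38.p6, while the array design uses mm9, so no gene positions are given; promoter windows alone carry positions. A probe was tested if 1 of its channels was well above background on 4 or more arrays, and the brightest tested probe stood for its gene. Mean ratios were tested against 0 with limma (lmFit and eBayes), adjusted by Benjamini-Hochberg over 14313 genes. Channel levels were taken after loess and Aquantile. Pairs of genes and correlations were tested by exact permutation, two-sided; the pair of Slc7a7 and Slc7a6 could not be tested. The members, lists and tests were chosen with earlier results of these data known. Array values were given for called members and the 6 largest others at an adjusted p under 0.05. Related lists give values for up to 4 called members, with Atf4 added to the amino acid response genes. Alternatives changed the background correction, offset (16), normalization, filter, probe rule, variance model, array weights and arrays used. Precision is limited by the number of arrays. The procedure was checked on simulated data.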

Additional observations from a re-analysis of the deposited data

Results flagged for a closer look

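Gars, the glycine enzyme, had a log2 ratio of 2.13 on array 8, against -0.19 to 0.87 on the other 7, a gap beyond Dixon's critical value for 8 samples (the gap was 0.543 of the range). On that array its tumor level was 15.83, against 13.80 to 14.70 on the others, and its control level was 13.70, against 13.75 to 14.09. Array 8 also had the dimmest tumor signal and held muscle transcripts in both channels. Their summed level was 12.68 in the tumor channel and 16.64 in the control channel. The part of the dim signal and of the muscle transcripts in the value was not tested. Of the 35 listed genes 1 was singled out in this way, where chance gives about 1 in 20 groups.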

How the results depend on the processing

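Of 25 alternative settings 24 gave values of single genes, and over these no value past the threshold changed sign. In them 43 values of 9 genes changed sign, with no pass in either setting. Of the single-gene values, 791 stayed on their side of the threshold, 40 lost it and 9 gained it. In the settings other than those that left out 1 array in turn, all genes higher at 2-fold numbered 849 to 2013 and lower 709 to 1533. By adjusted p alone the same settings gave 1380 to 4748 of all genes higher and 1417 to 4070 lower. Only these ranges stand beside the counts of members for slide row 1 alone and for the setting without arrays 7 and 8. Slide row 1 alone gave 1 synthetase higher at 2-fold and, by adjusted p alone, 4 higher and 1 lower, with 3 transporters lower at 2-fold. Slide row 2 alone gave, by adjusted p alone, 3 synthetases higher and 0 lower, 3 transporters higher and 1 lower, 1 transporter higher at 2-fold, and over all genes 849 higher at 2-fold and 1380 higher and 1417 lower by adjusted p alone; each row holds fewer arrays. Array weights gave 2 transporters lower at 2-fold and 4 by adjusted p alone. Without arrays 7 and 8 together, 1 synthetase was higher at 2-fold, 3 transporters lower at 2-fold and 4 by adjusted p alone, Slc3a2 minus Slc3a1 was 1.35, Slc38a4 minus Slc38a3 was 0.80 (adjusted p = 0.141 for both, exact permutation), and no gene correlated with Asns after adjustment (0, with 8 before it). The processed signals gave 1533 genes lower at 2-fold and 1.00 for Slc1a5 minus Slc1a4 (adjusted p = 0.0469, exact permutation). Averaging arrays 1 and 2 gave 8 genes correlated with Asns, and the tumor channel alone 0 (7 before adjustment). With each array left out in turn, synthetases higher at 2-fold numbered 0 to 1 (Vars, without array 8) and transporters lower 1 to 2 (Slc7a2 added without array 8), genes correlated with Asns 0 to 7, Slc3a2 minus Slc3a1 was 1.21 to 1.43, Slc38a4 minus Slc38a3 0.78 to 1.03 and Slc1a5 minus Slc1a4 0.54 to 0.89. Of all genes, 1293 to 1533 were higher and 836 to 902 lower at 2-fold with 1 array left out. With 7 arrays the smallest p of the sign-flip test is 0.0156 before adjustment, and it is larger without arrays 7 and 8 together. A lost call in either case says little. Why values moved between settings was not tested. Each ratio already sets a tumor against the control of its own array. No further paired analysis was possible, because the ratios form 1 group and the labels name no animals.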
